A study of Homo sapiens with 12 samples.

Results

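The elements described here are 108 short oligo sequences in the 3′ UTR of a recorder mRNA, each a Pumilio site broken at 2 places. Counting positions from 1, with the 5′ base of the 8-base element as position 1, the consensus reads T at 1, G at 2, T at 3, A at 4, any base at 5, A at 6, T at 7 and A at 8. A member kept positions 1 to 3 and differed from the consensus at position 4 and at exactly 1 of positions 6, 7 and 8. The choice rested on sequence alone, and all 108 possible members were found among the 1006 elements listed in all 12 libraries, of which 1005 had 8 bases. They comprised 36 members for each changed 3′ position, 36 for each new base at position 4 and 27 for each base at position 5.

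The cells were HEK293T, a line derived from human embryonic kidney that the labels give as wild type, and all 4 groups shared the same recorder library. In 3 groups the cells held human PUM2 fused to ADARcdMUT, a mutated catalytic domain of the adenosine deaminase ADAR. These were the non-induced fusion, the fusion at 25 ng and the fusion at 250 ng. The control group held ADARcdMUT without PUM2 at 1000 ng. Each group had 3 biological replicates per the series text, which also names doxycycline, an antibiotic that turns on tetracycline-controlled promoters, as the inducer of the fusion. The non-induced cells carried the fusion too. The amounts come from the sample titles, which name no substance, and 1 label on RNA extraction names embryos of another species, so the cell line rests on the other labels. The tables list reads and edits of recorder elements, not gene expression, so no marker of the cell line could be checked in them.

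Pumilio proteins are RNA-binding repressors that usually sit in 3′ UTRs. Their RNA-binding domain is a curved row of repeats, each of which reads a base of the target, and the UGU at the 5′ end followed by A forms the core of the site. The bases after position 5 form the 3′ part of the site, in which Pumilio proteins tolerate more variation. ADAR converts adenosine to inosine, which is read as G, so a bound fusion leaves A-to-G changes in the nearby recorder hairpin. Each read held 7 recorder adenosines, and the editing level below is the percent of them that were edited.

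The consensus elements from which the members derive differ among themselves only at position 5, and capitals mark the core TGTA.
Consensus with A at position 5: TGTAaata
Consensus with C at position 5: TGTAcata
Consensus with G at position 5: TGTAgata
Consensus with T at position 5: TGTAtata

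In 9 members the substitutions rebuilt a TGTA at another place in the element, and these are shown because they include the 5 members edited most at 250 ng. Capitals mark the rebuilt TGTA, which was searched for as the letters TGTA in the sense strand only. It starts at position 3 where A4G is followed by T at position 5 and the unchanged A at position 6, and at position 5 where A6G follows T at position 5. TGTA stood somewhere in 185 of the 1005 8-base elements (18.4%) and started after position 1 in 32 (3.18%).
TGTGTAAA, A4G with T7A: tgTGTAaa
TGTGTACA, A4G with T7C: tgTGTAca
TGTGTAGA, A4G with T7G: tgTGTAga
TGTGTATC, A4G with A8C: tgTGTAtc
TGTGTATG, A4G with A8G: tgTGTAtg
TGTGTATT, A4G with A8T: tgTGTAtt
TGTCTGTA, A4C with A6G: tgtcTGTA
TGTGTGTA, A4G with A6G: tgtgTGTA
TGTTTGTA, A4T with A6G: tgttTGTA

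A further set is shown because their editing rose less than that of the library as a whole, or because their level was the lowest of all members. Here capitals mark the 2 substituted bases.
TGTCCAGA, A4C with T7G: tgtCcaGa
TGTTCAGA, A4T with T7G: tgtTcaGa
TGTGGAGA, A4G with T7G: tgtGgaGa
TGTGGATC, A4G with A8C: tgtGgatC
TGTGCGTA, A4G with A6G: tgtGcGta
TGTGCCTA, A4G with A6C: tgtGcCta

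The 12 libraries held 11235321 to 25127959 reads. The members took 11.9% to 13.3% of them, and the least covered member in any library had 5880 reads. In the members the counting error of the share of edited reads averaged 0.225 to 0.298 percentage points in the fusion groups, against a median SD between replicates of 0.311 to 0.439 points. Replicate spread is therefore the error given below. Counting errors cover counting only, since the labels mention no molecular identifiers. Replicates are called biological, yet no label says which cultures they came from.

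Editing of the position 4 double substitutions rose with induction, and at each amount it stood where the bulk of the library stood. The median over the 108 members was 1.76%, 1.98% and 1.82% in the non-induced libraries, 4.23%, 4.58% and 4.26% at 25 ng, and 7.77%, 7.87% and 7.95% at 250 ng. With ADARcdMUT alone it was 2.03%, 1.96% and 1.86%. The libraries of the 3 fusion groups did not overlap, whereas those of the ADARcdMUT and the non-induced libraries did. As means these medians were 1.85% ± 0.112, 4.36% ± 0.193, 7.86% ± 0.0901 and 1.95% ± 0.0846 (SD, n = 3). Over all 8-base elements the same medians were 1.82% ± 0.0991, 4.35% ± 0.194, 7.87% ± 0.0992 and 1.95% ± 0.120. The fold from no induction to 250 ng was 4.24 for the members and 4.32 for all 8-base elements.

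At 250 ng the sets from which the members derive had higher medians than the members, though single members, such as TGTGGACA, stood above a parent. The 4 consensus elements, the intact sites, reached a median of 13.3% ± 0.288 at 250 ng, from 1.79% ± 0.0794 without induction. The 12 elements with a single substitution at position 4 reached 9.37% ± 0.162 at 250 ng. Single substitutions at position 6 reached 9.55% ± 0.0765, those at position 7 reached 9.14% ± 0.191 and those at position 8 reached 10.3% ± 0.234. Changing position 4 together with any of the 3 positions of the 5′ UGU, instead of a 3′ position, gave 7.83% ± 0.0784 over 108 elements. A pair of changes within positions 6 to 8, which leaves TGTA whole, gave 8.12% ± 0.0518 over 108 elements. These sets were described by their medians and not tested against each other.

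Absolute editing was tested on the log2 odds of an adenosine being edited, with limma over all 1006 elements and Benjamini-Hochberg adjustment. All 108 members passed at an adjusted p under 0.05 as higher at 250 ng than without induction, and so did 100% of the elements tested. The same held at 25 ng against no induction, at 250 ng against 25 ng, and at either amount against ADARcdMUT alone, with 100% of all elements called each time. Every member had its 3 libraries at 250 ng above its 3 at 25 ng, and these above its 3 non-induced ones, as did 100% of the elements in each comparison. The gain for 250 ng over no induction ran from 1.89 to 2.47 in log2 odds among the members, with a median of 2.19 against 2.21 over all 8-base elements. Since every element gained, the calls say nothing particular to the members.

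A preference for an element shows against the rest of its library. Each library was therefore centred on its median log2 odds, and the change relative to that median was tested in the same way. For 250 ng against no induction limma called 2 of 108 members relatively higher, or 1.85%, while it called 9.64% of all elements higher. It called 5 members relatively lower, or 4.63%, against 3.38% of all elements. The median relative change was -0.02 over the members and 0.01 over all 8-base elements. By comparison, 4 of 4 consensus elements and 9 of 12 single substitutions at position 4 were called higher and none lower. Of the 108 elements changed at position 4 and in the UGU, 5 were called higher and 2 lower, and of the 108 changed at 2 places within positions 6 to 8, 17 were higher and 1 lower.

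The other comparisons gave calls for at most 10 members. At 25 ng against no induction 2 members were relatively higher and 2 lower, with 7.06% and 2.19% of all elements called. Against ADARcdMUT alone, 250 ng gave 4 higher and 6 lower members (10.3% and 4.37% of all elements), and 25 ng gave 2 higher and 4 lower (7.55% and 2.49%). These comparisons share libraries with the first and are no independent repeat of it. Between 250 ng and 25 ng limma called 0 members and 0% of all elements either way, with an unadjusted p under 0.05 for 1 member and 4 elements in all.

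These counts depended on single libraries. For 250 ng against no induction, the 2 higher calls became 1 without non-induced replicate 2 or 3, 25 ng replicate 1 or 250 ng replicate 2. They became 0 without 250 ng replicate 1 or 3, and 6 or 5 without ADARcdMUT replicate 1 or 3. The 5 lower calls became 3 without 250 ng replicate 1 or 3. For 250 ng against ADARcdMUT the 4 higher calls became 1 without 250 ng replicate 1, 2 without 250 ng replicate 2 or 3, and 7 without ADARcdMUT replicate 3. The 6 lower calls there became 1 without 250 ng replicate 1, 2 without 250 ng replicate 2 or 3, and 3 without ADARcdMUT replicate 2. At 25 ng against no induction the 2 higher calls became 0 without non-induced replicate 3 or 25 ng replicate 2 and 1 without 25 ng replicate 3. The 2 lower calls became 1 without non-induced replicate 1, 0 without non-induced replicate 3 or any library at 25 ng or 250 ng, and 5 or 4 without ADARcdMUT replicate 1 or 2. At 25 ng against ADARcdMUT the 2 higher calls became 4 without ADARcdMUT replicate 3, and the 4 lower calls became 0 or 1 without 25 ng replicate 2 or 3. Of the 27 called changes over the 4 comparisons, 7 held without each library in turn.

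All 4 members called relatively higher in any comparison were among the 9 that hold a rebuilt TGTA. Each comparison of 25 or 250 ng with no induction or ADARcdMUT called 7.06% to 10.3% of all elements higher. The 5 members with the highest level at 250 ng were also among the 9. As a class the 9 had a median level of 8.94%, 9.19% and 8.90% in the 3 libraries at 250 ng, against 7.76%, 7.84% and 7.93% for the other 99 members. The difference was smaller at 25 ng, with 4.85% ± 0.0813 against 4.34% ± 0.191. Without induction the classes had 1.92% ± 0.106 and 1.84% ± 0.105, and with ADARcdMUT alone 1.98% ± 0.115 and 1.95% ± 0.0829. All 9 have T at position 5, so the classes differ in that base as well. The 18 members with T there and no TGTA had a median of 8.15% ± 0.145 at 250 ng and 4.45% ± 0.205 at 25 ng. The library held 23 other elements in which TGTA starts after position 1. Of these, 15 were called relatively higher and none lower at 250 ng against no induction, with a median relative change of 0.28. In that comparison 2 of the 9 members, TGTTTGTA and TGTGTAAA, were called higher, and the 9 had a median of 0.09. The 23 include TGTGTATA, a single substitution at position 4 and a parent of members. They are thus not matched to the 9, and the sets were not tested against each other.

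TGTTTGTA, in which A4T and A6G leave a TGTA at the 3′ end, had the highest level of all members at 250 ng. Its editing was 1.77%, 2.04% and 1.85% without induction, 4.92%, 5.96% and 5.07% at 25 ng, 9.54%, 9.27% and 9.68% at 250 ng, and 2.04%, 1.85% and 1.93% with ADARcdMUT alone. The 250 ng libraries lay far above the rest, and the ADARcdMUT and non-induced libraries overlapped. Its mean at 250 ng was 9.50% ± 0.208, a fold of 5.03 over no induction. Its relative change was 0.25 (SE 0.06, limma adjusted p = 0.0129) for 250 ng and 0.25 (SE 0.06, adjusted p = 0.0155) for 25 ng against no induction. Against ADARcdMUT it was 0.30 at either amount, with adjusted p = 0.00297 for 250 ng and 0.00396 for 25 ng. The calls against ADARcdMUT held without each library in turn. The call at 250 ng against no induction was lost without 250 ng replicate 1 (adjusted p = 0.0663) or replicate 3 (0.0581), and that at 25 ng without non-induced replicate 3 (0.0513) or 25 ng replicate 2 (0.0929).

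TGTGTAAA, in which A4G makes a TGTA from position 3, reached almost the same level. It was edited at 2.02%, 1.88% and 1.68% without induction, 4.97%, 4.87% and 5.23% at 25 ng, 9.24%, 9.26% and 9.95% at 250 ng, and 1.97%, 1.95% and 1.87% with ADARcdMUT alone. Replicate 3 was the highest at 250 ng and the lowest without induction. The mean at 250 ng was 9.48% ± 0.402, and the relative change against no induction was 0.26 (SE 0.08, limma adjusted p = 0.0407). Leaving out any 250 ng library, non-induced replicate 2 or 3, or 25 ng replicate 1 ended that call, with adjusted p from 0.0605 to 0.169. Against ADARcdMUT the change was 0.30 (adjusted p = 0.0188), and that call ended without 250 ng replicate 1 (0.0536) or 3 (0.0851).

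TGTCTGTA differs from TGTTTGTA at position 4 alone. Its levels were 1.85%, 2.02% and 1.88% without induction, 4.94%, 5.62% and 5.07% at 25 ng, 9.01%, 9.52% and 8.90% at 250 ng, and 2.11%, 1.99% and 1.86% with ADARcdMUT alone. Its relative change missed the threshold at 250 ng against no induction (0.16, SE 0.05, limma adjusted p = 0.0538). It passed at 25 ng against no induction (0.20, adjusted p = 0.0242) and against ADARcdMUT at 250 ng (0.21, adjusted p = 0.0140) and 25 ng (0.24, adjusted p = 0.00529). Of these, the call at 25 ng against ADARcdMUT held without each library. The call at 250 ng ended without 250 ng replicate 1 (0.0598) or 2 (0.100), and that at 25 ng against no induction without non-induced replicate 3 (0.0620) or 25 ng replicate 2 (0.105) or 3 (0.0807). TGTGTATT, the remaining member called higher, passed only for 250 ng against ADARcdMUT (0.21, SE 0.06, adjusted p = 0.0266), with 8.28%, 8.33% and 8.30% at 250 ng, and lost the call without any of the 250 ng libraries (0.102, 0.100 and 0.0784).

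TGTGTGTA had a high level in every group, and its relative change was negative but not called. It was edited at 2.22%, 2.65% and 2.42% without induction and 2.53%, 2.47% and 2.35% with ADARcdMUT alone, the highest member mean in both groups. At 25 ng it had 5.14%, 5.47% and 5.24%, and at 250 ng 8.95%, 9.37% and 9.37%. The fold from no induction to 250 ng was therefore 3.80, and the relative change was -0.17 (SE 0.06, limma adjusted p = 0.0561). Its sign changed on the arcsine scale and with centring on EMPTY, as given at the end. TGTGTACA likewise reached 9.14% ± 0.177 at 250 ng with a relative change of 0.09 (SE 0.06). The other TGTA members, TGTGTAGA, TGTGTATC and TGTGTATG, had 8.0%, 8.08% and 8.20% at 250 ng, within the range of the members without TGTA. Among the 99 without TGTA the 250 ng levels ran from 6.56% to 8.60%, the highest being TGTTTATT with 8.38%, 8.88% and 8.54%.

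The 9 members called relatively lower in at least 1 comparison held no TGTA, as did 99 of all 108 members. Each comparison of 25 or 250 ng with no induction or ADARcdMUT called 2.19% to 4.37% of all elements lower. Of the 9, 4 carried T7G, which 12 members carry. TGTCCAGA had 2.09%, 2.18% and 2.19% without induction, 4.21%, 4.97% and 4.34% at 25 ng, 7.69%, 7.42% and 7.46% at 250 ng, and 2.32%, 2.46% and 2.07% with ADARcdMUT alone. It began above the member median of 1.85% and ended below that of 7.86%, and its libraries at 250 ng were still clear of those in the other groups. Its relative change was -0.32 (SE 0.06, limma adjusted p = 0.00194) against no induction and -0.31 (SE 0.06, adjusted p = 0.00239) against ADARcdMUT.

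TGTTCAGA, its counterpart with A4T, had 2.12%, 2.25% and 1.94% without induction and 7.17%, 7.69% and 7.40% at 250 ng. Its relative change was -0.30 (SE 0.07, limma adjusted p = 0.00482) against no induction and -0.24 (adjusted p = 0.0214) against ADARcdMUT, where leaving out 250 ng replicate 1 or 3 or ADARcdMUT replicate 2 ended the call (0.0942, 0.0875 and 0.0711). TGTGCGTA, TGTGGAGA and TGTGGATC were also relatively lower against no induction, by -0.28, -0.24 and -0.18, with adjusted p of 0.00722, 0.0179 and 0.0389. TGTTTACA, TGTCTATC, TGTTGAGA and TGTTGATC were called lower against ADARcdMUT at both amounts and not against no induction, with changes of -0.23, -0.18, -0.19 and -0.18 at 250 ng. Each of these calls ended without 2 to 8 of the libraries. Over the 9, the levels without induction were 1.82% to 2.19%, those with ADARcdMUT alone 2.06% to 2.28%, and those at 250 ng 7.42% to 7.93%.

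The lower calls depended on what stood as the reference. When each library was centred on its entry named EMPTY instead of on its median, relative changes at 250 ng against no induction moved up by 0.19 for every element, which gave 58 higher and 0 lower members. The share of all elements called higher with that reference is not given here, so the 58 cannot be read as a trait of the members. None of the 5 lower calls against no induction held then, and TGTGGATC turned to 0.02. EMPTY itself was edited at 2.01% ± 0.111 without induction and 7.63% ± 0.0689 at 250 ng. TGTCCAGA, TGTTCAGA and TGTGCGTA kept their lower call against no induction without each library in turn. TGTGGAGA lost it without non-induced replicate 3 (adjusted p = 0.0701) or 250 ng replicate 1 (0.0617) or 3 (0.101). TGTGGATC lost it when any of 7 libraries was left out: any at 250 ng, non-induced replicate 1 or 2, and 25 ng replicate 1 or 3, with adjusted p from 0.0531 to 0.131.

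TGTGCCTA was the least edited member in all 4 groups. Its levels were 1.34%, 1.67% and 1.31% without induction, 3.45%, 3.72% and 3.38% at 25 ng, 6.31%, 6.58% and 6.79% at 250 ng, and 1.30% to 1.54% with ADARcdMUT alone. Each 250 ng library lay below 7.34%, the mean of TGTGAAGA, the next member up. Its fold from no induction to 250 ng was 4.56 and its relative change 0.07 (SE 0.08, limma adjusted p = 0.661).

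By the base put at position 4, the median at 250 ng was 7.77% ± 0.0553 with A4C, 7.87% ± 0.116 with A4G and 7.96% ± 0.0676 with A4T. By the 3′ position it was 7.90% ± 0.0733 for position 6, 7.85% ± 0.161 for position 7 and 7.89% ± 0.0467 for position 8, with overlapping libraries. Grouped by the exact 3′ substitution, the members covered a wider range. A6G members had the highest median, 8.27% ± 0.0978, followed by A8T with 8.09% ± 0.136, while T7G members had the lowest, 7.50% ± 0.0809. The A6G members include TGTCTGTA, TGTGTGTA and TGTTTGTA, which hold a rebuilt TGTA.

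At position 5, which the consensus leaves free, members with T were edited most. The 27 of them had 8.04%, 8.19% and 8.32% in the libraries at 250 ng. Members with A there had 7.83%, 7.87% and 7.85%, those with C 7.74%, 7.86% and 7.82%, and those with G 7.70%, 7.71% and 7.85%. The libraries with T lay above all others. Without the members that hold TGTA, the 18 left with T at position 5 still had 8.15% ± 0.145. Without induction the same 18 had 1.86% ± 0.136, within the spread of all members.

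Each member was then compared inside each library with its 2 parents, the elements that carry only 1 of its substitutions and the same base at position 5. The value was the log2 odds of the member minus that of the parent, and the change of this value with induction was tested with limma over all 1512 pairs of double and single substitutions in the library. A pair that moved lower had a member that gained less editing than its parent. The parents are shared by several members, so the pairs are not independent.

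Breaking position 4 in an element that already had a 3′ change gave a lower gain in most pairs. For 250 ng against no induction 80 of 108 such pairs were called lower, against 45.6% of all pairs tested, and the median change was -0.37 with a range of -0.76 to 0.19. The count was 22 of 36 where the parent had a change at position 6, 24 of 36 at position 7 and 34 of 36 at position 8. All 12 pairs with an A8T parent and all 12 with an A8G parent were called, with medians of -0.60 and -0.43. With a T7C parent 4 of 12 were called, with a median of -0.08. The parents differed in their own relative change in this comparison. With A, C, G and T at position 5 it was 0.62, 0.72, 0.37 and 0.80 for the A8T parents. In the same order it was 0.51, 0.41, 0.29 and 0.51 for A8G and -0.06, 0.31, 0.02 and 0.11 for T7C. The T7C parents thus had less gain to lose. Whether the counts differ beyond the gain of the parents was not tested. The bases put at position 4 gave similar counts of 28, 25 and 27 of 36 for A4C, A4G and A4T.

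The largest loss was that of TGTCCAGA against its parent TGTACAGA, which has T7G alone. The parent was edited at 1.95%, 2.05% and 1.84% without induction and 11.1% ± 0.349 (10.7% to 11.4%) at 250 ng. The member, as given above, stood slightly over it without induction and well below it at 250 ng, where no library of the member reached any of the parent. The change was -0.76 (SE 0.09, limma adjusted p = 1.67e-05). TGTTCAGA against the same parent gave -0.75 (SE 0.09, adjusted p = 2.61e-05), and TGTTCATT against TGTACATT gave -0.73 (SE 0.08, adjusted p = 1.67e-05). At 250 ng TGTACATT had 11.4%, 11.6% and 11.6%, while TGTTCATT had 8.01%, 7.95% and 8.52%.

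Adding a 3′ change to an element already broken at position 4 gave a lower gain in 56 of 108 pairs at 250 ng against no induction, a share near the 45.6% of all pairs that were called lower, and the median was -0.24 with a range of -0.58 to 0.22. The calls were 17 of 36 for position 6, 21 of 36 for position 7 and 18 of 36 for position 8. Without 250 ng replicate 3 the count was 37. In neither direction of the comparison was a pair called higher at 250 ng against no induction, with 0 at an unadjusted p under 0.05, whereas 0.926% of all pairs were. Without non-induced replicate 1, 1 pair with an added 3′ change was called higher. No other tool was run on the pairs.

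For 250 ng against ADARcdMUT, 63 pairs with an added 3′ change were lower and 2 higher, and 69 pairs with an added position 4 change were lower and 1 higher, where 41.9% of all pairs were lower and 1.19% higher. The 2 higher calls became 0 or 1 without any 250 ng library or ADARcdMUT replicate 1 or 3, and the 1 higher call became 0 without any of these. At 25 ng against no induction the lower counts were 44 and 75, with 37.5% of all pairs lower and 0.595% higher, and no member pair was higher. The 44 became 29 without non-induced replicate 1, 24 without 25 ng replicate 1 and 23 without 25 ng replicate 2.

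By the base at position 5, the lower gain from an added 3′ change was called in 22 of 27 pairs with T there, 19 of 27 with A, 15 of 27 with C and 0 of 27 with G, where 1 pair had an unadjusted p under 0.05 toward lower. The difference between these bases was not itself tested. The parents with G at position 5 were already low. At 250 ng the 3 position 4 single substitutions with G had a median of 8.32% ± 0.0818, those with C 9.17% ± 0.247, those with A 9.59% ± 0.204 and those with T 10.2% ± 0.373. TGTGGATA, an A4G single substitution with G at position 5, was edited at 7.86%, 7.98% and 7.98%, which is near the library median.

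For the members with a rebuilt TGTA the parents were high as well. TGTCTATA, TGTGTATA and TGTTTATA, the position 4 single substitutions with T at position 5, had 10.1% ± 0.251, 10.4% ± 0.180 and 10.1% ± 0.509 at 250 ng, and only TGTGTATA of these holds a TGTA. Adding A6G to TGTTTATA to make TGTTTGTA changed the response by -0.16 (SE 0.09, limma adjusted p = 0.153). Adding T7A to TGTGTATA to make TGTGTAAA changed it by -0.09 (SE 0.11, adjusted p = 0.533). Adding A6G to TGTGTATA to make TGTGTGTA changed it by -0.52 (SE 0.08, adjusted p = 0.000168), and without induction that member stood 0.34 above its parent in log2 odds. Of the 9 pairs of this kind 6 were called lower.

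Departure from additivity asks whether the losses from the 2 substitutions add up in log2 odds. It was computed in each library as the member minus both parents plus the consensus with the same base at position 5. For 250 ng against no induction limma called 26 of 108 members higher, meaning that they kept more editing than the sum of both losses would leave. The share was 24.1% of members, against 40.9% of all 756 double substitutions in the library, and the medians were 0.21 and 0.34. No member was called lower, against 0.132% of all double substitutions, with 0 at an unadjusted p under 0.05 and no other tool run. The 26 became 15 without 250 ng replicate 1 and 17 without 250 ng replicate 2. Against ADARcdMUT 50 members were higher at 250 ng, where 62.8% of all double substitutions were, and without 250 ng replicate 1 or 2 the 50 became 28 or 33. At 25 ng against no induction 24 were higher, with 36.2% of all, and the 24 became 11 without 25 ng replicate 1 or 3 and 37 without ADARcdMUT replicate 2. At 25 ng against ADARcdMUT 49 were higher, with 62.6% of all.

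Expressed as levels, additive losses would have left a median of 6.85% at 250 ng, with a range of 5.42% to 8.76%. The measured median was 7.88%, and 103 of 108 members stood above their additive level. At 250 ng the additive median lay below the 7.63% of EMPTY and below 7.67%, the lower quartile of all 8-base elements. A member edited like the bulk of the library would therefore already stand above that median. Beyond the comparisons with the library median and with EMPTY given above, whether the members kept any response of their own was not tested. By the base at position 5, of 27 members with G 20 were called, with a median of 0.45, while 4 were called with A, 2 with T and 0 with C, where 2 had an unadjusted p under 0.05. T7C members gave 8 calls in 12, with a median of 0.53.

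The largest departures were those of TGTCAACA and TGTGGACA. TGTCAACA was edited at 8.15%, 7.88% and 7.94% at 250 ng, where additivity would leave 5.42% ± 0.0834. Its parents had 9.03% ± 0.162 (TGTCAATA) and 8.09% ± 0.195 (TGTAAACA), so the member stood at the level of the lower parent. The departure grew by 0.88 with induction (SE 0.18, limma adjusted p = 0.00309), from -0.28 ± 0.47 without induction, a wide spread, to 0.60 ± 0.05 at 250 ng. TGTGGACA was edited at 7.88%, 8.17% and 8.16%, against an additive 5.48% ± 0.158. Its departure grew by 0.81 (SE 0.11, adjusted p = 0.000660), and its parents TGTGGATA and TGTAGACA had 7.94% ± 0.0691 and 8.02% ± 0.0906. TGTGGGTA followed with 0.69 (SE 0.12, adjusted p = 0.00161). For TGTGGACA the member and both parents all lay near the library median of 7.87%.

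The share of reads with at least 1 edit had a median over the members of 7.08% ± 0.167 without induction, 13.9% ± 0.105 at 25 ng, 22.2% ± 0.367 at 250 ng and 7.28% ± 0.323 with ADARcdMUT alone. An edited read carried 1.83 ± 0.0769, 2.20 ± 0.0892, 2.49 ± 0.0163 and 1.88 ± 0.0335 edits in the same order. For the consensus at 250 ng the values were 29.2% ± 0.287 of reads and 3.20 ± 0.0383 edits per edited read. TGTTTGTA and TGTGTAAA at 250 ng had 24.1% ± 0.287 and 23.9% ± 0.843 of reads edited and 2.75 and 2.77 edits per edited read, so both parts of the level were above the member median. When the share of reads edited was tested in place of the level, 0 members were called relatively higher at 250 ng against no induction, TGTTTGTA having an adjusted p of 0.146 and TGTGTAAA one of 0.583.

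Between ADARcdMUT without PUM2 and the non-induced fusion, no difference in a member passed the test. limma called 0 members in either direction, on absolute or relative values, where 0.199% of all elements were called higher. Of the members 16 had an unadjusted p under 0.05 on absolute and 9 on relative values, and in 11 of 108 the 3 libraries of the groups did not overlap, against 10.9% of all elements. Without ADARcdMUT replicate 3 the absolute test called 9 members higher. The largest relative differences were 0.19 (SE 0.09) for TGTCAACA and 0.18 for TGTTTATG and TGTCCATT, and toward lower -0.20 (SE 0.07) for TGTGGATT and -0.17 for TGTTAAAA and TGTTAATC. Across the 108 members the mean levels of these groups correlated with Pearson's r of 0.66 and Spearman's rho of 0.48, a description over elements that share their libraries. TGTGTGTA was the highest and TGTGCCTA the lowest member in both.

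Read numbers of the members, a readout apart from editing, differed between 250 ng and ADARcdMUT. Tested with edgeR's quasi-likelihood test over all elements with Benjamini-Hochberg adjustment, 16 of 108 members had more reads at 250 ng and 64 had fewer, where 31.7% and 34.8% of all elements did, and the median log2 change was -0.19. Among the members, those richer in G and C were more often lower, and the same trend over all elements is not given here. Of the 24 members with 4 G or C bases 23 were lower, with a median of -0.34, while of the 6 with 1 such base 3 were higher and 1 lower, with a median of 0.12. A4C members were lower in 30 of 36 cases and A4T members in 11 of 36. Over the 108 members the log2 change correlated with the number of G and C bases with Pearson's r of -0.57 and Spearman's rho of -0.56. The 16 higher calls became 7 without 250 ng replicate 3 and 8 without ADARcdMUT replicate 1.

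No member was called in the other read comparisons by edgeR, nor was any other of the 1006 elements. At an unadjusted p under 0.05 there were 43 members for 250 ng against no induction, 29 for 250 ng against 25 ng, 47 for 25 ng against ADARcdMUT, 46 for ADARcdMUT against no induction and 0 for 25 ng against no induction. DESeq2 called 15 higher and 13 lower for 250 ng against no induction, 17 lower for 25 ng against ADARcdMUT 31 higher for ADARcdMUT against no induction, 19 higher and 68 lower for 250 ng against ADARcdMUT, and 0 in the remaining 2 comparisons. By chi-squared per degree of freedom, read profiles of replicates differed most at 25 ng, with 202 between replicates 1 and 2. That value compares variances with sampling noise and also rises with read depth. Without 25 ng replicate 2, edgeR called 61 members lower and 2 higher for 25 ng against ADARcdMUT, 32 higher for ADARcdMUT against no induction, and 16 higher and 28 lower for 250 ng against no induction. Without 25 ng replicate 1 it called 8 higher and 6 lower for 250 ng against no induction and 9 higher and 23 lower for 250 ng against 25 ng. Without ADARcdMUT replicate 3 it called 39 higher for ADARcdMUT against no induction, and 37 lower and 1 higher for 25 ng against ADARcdMUT. For the counts by unadjusted p, by DESeq2 and with a library left out, shares of all elements are not given here. These counts therefore do not set the members apart from the library. Whether read numbers bear on the editing levels was not tested.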

How the data were processed

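The deposited tables give, per element, counts of reads, of reads with at least 1 edit and of edits summed over reads. The authors also deposited percent values (of edited adenosines, of all reads) and an efficiency score, which were not used except that the deposited percent was recomputed within 1e-09 as edits over 7 times reads. The sample titles gave groups and replicate numbers. Aligner and edit caller were not given in the sources used here. Every table lists only elements with at least 1015 reads, so 16 of 1022 elements not listed in all 12 libraries were left out, and a planned minimum of 100 reads removed none.

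The value tested was log2((edits + 0.5)/(7 × reads − edits + 0.5)), with limma 3.58.1 (lmFit, eBayes with trend) in R 4.3.3, 1 fit of all 12 libraries per value type, Benjamini-Hochberg adjustment over every feature of the fit, with adjusted p under 0.05 taken as called. Reads were tested with edgeR 4.0.16 (quasi-likelihood, TMM), with DESeq2 1.42.0 as an alternative. Tables were joined in Python 3.11.15 with pandas 2.3.3. The fits were tested on simulated data. Members, element lists and tests were chosen with earlier results of these data known. Named were the members with a rebuilt TGTA, those called in 1 direction relative to the median against both the non-induced and the ADARcdMUT libraries, the extremes by non-induced level, relative change (also for ADARcdMUT against no induction), pair and additivity, the consensus and the parents of named members. TGTTTATT, TGTGAAGA, TGTGGATC and the members called only against ADARcdMUT lie outside that rule and were named after their values were seen. Alternatives were another pseudocount, an arcsine square root scale, shares of edited reads, other references for centring, fits of 2 groups, eBayes without trend, a minimum of 5000 reads, the replicate block and each library left out. Replicate numbers were not taken to pair libraries: 18 same-numbered pairs correlated at -0.09 to 0.07.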

Additional observations from a re-analysis of the deposited data

How the results depend on the processing

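Of 432 counts and medians recomputed under alternatives, 375 stayed within 1.5 times or 1 SD of the reported value. Of 924 recomputed relative changes of named members, 742 kept their direction and side of the threshold, 130 lost the threshold, 38 gained it and 14 changed sign. The cause was not tested for any of them. Centring on EMPTY gave 58 higher and 0 lower members for 250 ng against no induction, 45 and 0 for 25 ng, 53 and 0 for 250 ng against ADARcdMUT, and 36 and 0 for 25 ng. In each comparison it moved all elements up by the same amount, and the shares of all elements called are not given here. At 250 ng against no induction it turned TGTCTAGA to 0.01, TGTCTATC to 0.12, TGTGGATC to 0.02, TGTGTAGA to 0.16, TGTGTATC to 0.11, TGTGTATG to 0.16, TGTGTGTA to 0.02, TGTTGAGA to 0.12, TGTTGATC to 0.16, TGTTGGTA to 0.01 and TGTTTACA to 0.05. TGTGTAGA ranged from -0.07 without non-induced replicate 1 to 0.00 without non-induced replicate 2, and the arcsine scale turned TGTGTATG to 0.00128 and TGTGTGTA to 0.00323.

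The arcsine scale gave 7 relatively higher members at 250 ng against no induction, 8 against ADARcdMUT, and 1 lower at 25 ng against no induction. It gave 90 lower pairs with an added 3′ change at 250 ng and 68 at 25 ng against no induction. Its higher additivity calls were 72 and 60 against no induction and 85 and 81 against ADARcdMUT, for 250 ng and 25 ng. The share of reads edited gave 0 relatively higher members for 250 ng in either comparison and for 25 ng against no induction, 1 higher and 1 lower for 25 ng against ADARcdMUT, and 1 lower for 25 ng against no induction. Its lower pairs with an added 3′ change were 26 and 15 against no induction and 36 and 24 against ADARcdMUT, with 1 higher pair at 250 ng, and 0 higher pairs with an added position 4 change. Its additivity calls were 14 and 3 against no induction and 33 and 19 against ADARcdMUT. Member medians of that share were 7.08%, 13.9%, 22.2% and 7.28%. Fits of 2 groups gave 7 higher and 8 lower members at 250 ng against no induction, 1 lower against ADARcdMUT, 0 lower at 25 ng against ADARcdMUT, 30 lower pairs with an added 3′ change there, and 15 members with more and 39 with fewer reads at 250 ng than without induction. The single higher pair with an added 3′ change at 25 ng against ADARcdMUT became 0 with a pseudocount of 5, the arcsine scale, the share of reads edited, 2 groups, no trend or the replicate block. DESeq2 called 15 more and 13 fewer in reads for 250 ng against no induction, 17 fewer for 25 ng against ADARcdMUT and 31 more for ADARcdMUT against no induction. With the replicate block, read counts gave 10 more and 13 fewer for 250 ng against no induction and 1 relatively lower member remained at 25 ng against no induction. Apart from these and the single pair above, counts under the block stayed within 1.5 times. Shares of all elements, pairs or double substitutions called under these alternatives are not given here. The counts therefore do not set the members apart from the library.

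With each library left out in turn, relatively higher members ranged from 0 to 6 and lower from 3 to 7 for 250 ng against no induction. They ranged from 0 to 3 and 0 to 5 for 25 ng, from 1 to 7 and 1 to 7 for 250 ng against ADARcdMUT, and from 2 to 4 and 0 to 6 for 25 ng. Absolute higher calls for ADARcdMUT against no induction ranged from 0 to 9. Lower pairs with an added 3′ change ranged from 37 to 64 and 23 to 55 against no induction and 42 to 66 and 31 to 56 against ADARcdMUT, and higher ones from 0 to 1, or 0 to 2 for 250 ng against ADARcdMUT. Higher pairs with an added position 4 change ranged from 0 to 1 against ADARcdMUT. Additivity calls ranged from 15 to 30 and 11 to 37 against no induction, and from 28 to 56 and 37 to 59 against ADARcdMUT. Members with more reads ranged from 7 to 16 for 250 ng against ADARcdMUT, 0 to 16 against no induction and 0 to 9 against 25 ng, from 0 to 2 for 25 ng against ADARcdMUT and from 0 to 39 for ADARcdMUT against no induction. Those with fewer ranged from 0 to 28 for 250 ng against no induction, 0 to 23 against 25 ng and 0 to 61 for 25 ng against ADARcdMUT. A minimum of 5000 reads moved no count by over 1.5 times. Shares over the whole library with a library left out are not given, here or above, so these ranges describe the members only. The number of libraries, 3 a group, limits the precision.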
